A study of Mus musculus with 8 samples.

Results

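The genes described here encode the proteins that bind or remove N6-methyladenosine (m6A), an internal methyl mark on adenosine in RNA, and the question was where their own nascent transcripts carried m6A peaks. They were the nuclear reader gene Ythdc1, the related gene Ythdc2, the cytosolic reader genes Ythdf1, Ythdf2 and Ythdf3, the reader gene Prrc2a, and the demethylase genes Fto and Alkbh5. All peaks whose midpoint fell within the span of one of these 8 genes, on the same strand, were taken. This gave 36 of the 17068 peaks in the series, in 7 of the 8 genes.

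RNA bound to chromatin, in which unspliced transcripts are abundant, had been isolated from untreated E14 mouse embryonic stem cells kept in serum with LIF. The RNA was cut into short fragments, precipitated with an m6A antibody and sequenced. The 8 libraries formed 4 groups of 2 replicates: m6A precipitates with the Synaptic Systems antibody (SySy) and their inputs, and m6A precipitates with the Abcam antibody and their inputs. All groups came from this one cell line, with no mutant or treated group. The deposited data were 3 lists of strand-specific intervals: 5277 peaks called with both antibodies (confidence group 1, Cfg1), 5472 called with SySy where the Abcam signal stayed under the threshold (Cfg2), and 6319 called with Abcam only (Cfg3). Peaks of Cfg1 and Cfg2 together are named SySy-called. The duplicates had been pooled before calling, and the lists hold neither a height nor a value per library, so depth and replicate error are unknown. Shares are therefore given with 95% Wilson intervals, which cover counting error only. Peaks of one gene share transcripts and are not replicates, so no share was tested against another. The labels name one stranded library kit for all libraries and the methods name a different kit for each antibody, so a difference between SySy and Abcam cannot be told apart from one between kits. Of 10 genes that mark embryonic stem cells, 9 carried a peak, while none of 8 fibroblast marker genes did. Over all protein-coding genes 25.1% carried a peak of any list. Since peaks give no expression level, these counts do not establish the cell type.

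m6A is placed on nascent RNA by a writer complex built on the catalytic subunit Mettl3 and its partner Mettl14, mostly within a short sequence that centres on the methylated adenosine in GGAC. Proteins with a YTH domain hold the methylated base in an aromatic pocket. Ythdc1 does so in the nucleus, where it acts in splicing and export, and the Ythdf proteins act on mRNA decay and translation in the cytosol. Fto and Alkbh5 are oxygenases that take the methyl group off again, and Fto also acts on m6Am, a related mark next to the cap.

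The 36 peaks fell into 11 of Cfg1, 19 of Cfg2 and 6 of Cfg3, so 30 were SySy-called. Among the 8 genes, 7 carried a SySy-called peak and 5 carried a Cfg1 peak. Over all 21951 protein-coding genes, 25.1% carried a peak of any list, 19.7% a SySy-called peak, 12.1% a Cfg1 peak and 13.3% a Cfg3 peak. Ythdf3 held the most, with 2 Cfg1, 4 Cfg2 and 4 Cfg3 peaks, and only 180 protein-coding genes held 10 or more. Ythdc1 followed with 3, 2 and 2 peaks in the same lists. Ythdf2 had 3 Cfg1 and 2 Cfg2 peaks, Prrc2a 2 and 2, and Fto 1 and 2. Ythdf1 and Alkbh5 had Cfg2 peaks only, 3 and 4 of them. Ythdc2, an RNA helicase with a YTH domain that is best known from meiosis, had no peak in any list. The lists carry no expression level, so a gene without methylation and a gene with few reads could not be told apart.

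**Figure D1:**
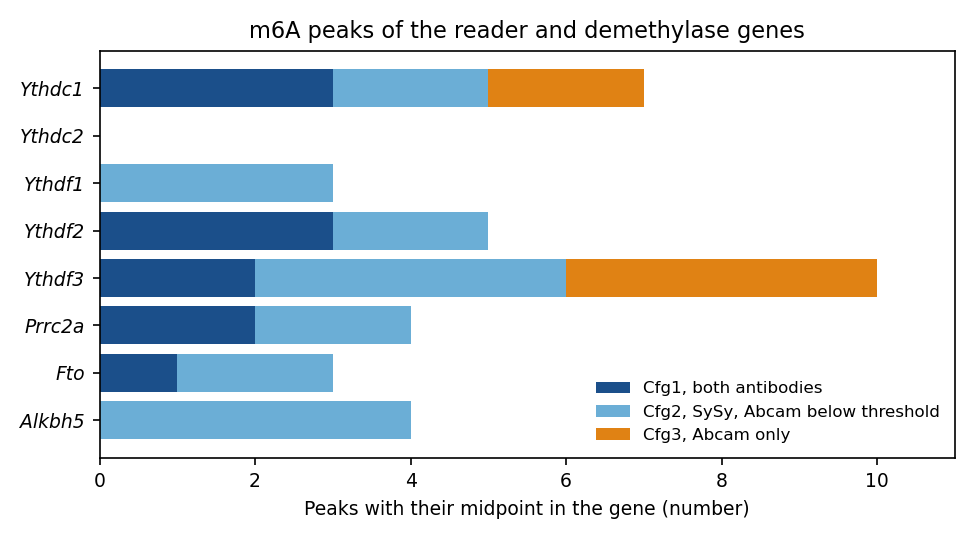
Number of peaks (x axis) with their midpoint in each gene (rows), stacked by peak list: dark blue Cfg1, light blue Cfg2, orange Cfg3. Ythdf3 reaches 10 peaks and Ythdc1 7, Cfg3 peaks appear in these 2 genes only, and the row of Ythdc2 is empty.

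Many neighbouring peaks were pieces of one enriched stretch. The 30 SySy-called peaks came from 20 calls made before the split between summits, and 6 of these calls, 30.0%, had been split, against 30.6% of the 6800 SySy calls in protein-coding genes. In 3 of the 6 split calls, in Ythdc1, Ythdf2 and Fto, some pieces belonged to Cfg1 and others to Cfg2. Between neighbouring SySy-called peaks of one gene the gap was 1 nt in 8 of 23 pairs and at least 82 nt in the others. Merging peaks that lay within 50 nt left 27 regions over all lists and 22 among the SySy-called peaks.

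Exonic peaks of these genes sat in coding sequence. Positions were read on 1 representative transcript per gene, that with the longest coding sequence. Of the 24 SySy-called peaks in its exons, 20 had their midpoint in coding sequence (83.3%, interval 64.1% to 93.3%), 2 in a 5' UTR and 2 in a 3' UTR (8.33% each, 2.32% to 25.8%). Over all protein-coding genes, 58.3% of 8754 exonic SySy-called peaks lay in coding sequence (57.2% to 59.3%), 4.58% in a 5' UTR and 37.2% in a 3' UTR (36.2% to 38.2%). All 20 coding peaks were in an exon before the last one, and in each gene that exon was the one with the most coding sequence. Over all protein-coding genes, 60.7% of 5100 coding peaks lay before the last exon, and 78.3% in the exon with the most coding sequence.

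**Figure D2:**
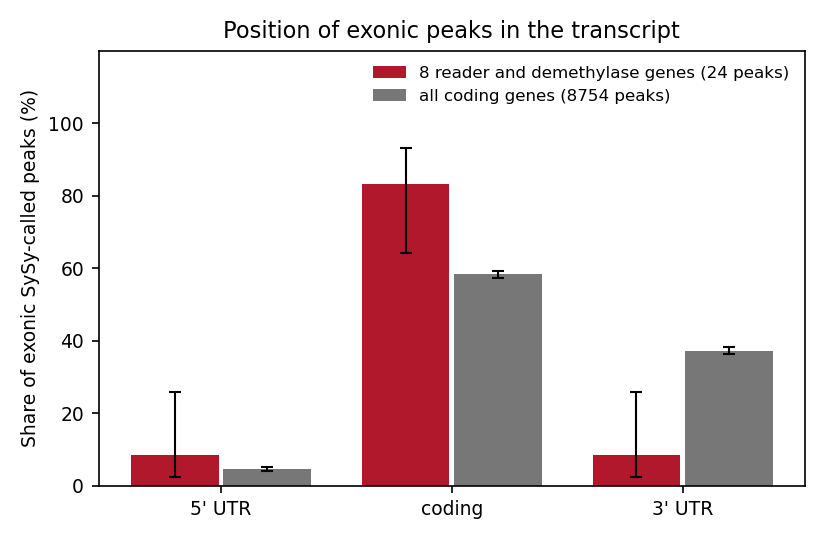
Share of exonic SySy-called peaks (y axis, percent) in the 5' UTR, the coding sequence and the 3' UTR, for the 8 reader and demethylase genes (red, 24 peaks) and all protein-coding genes (grey, 8754 peaks); bars carry 95% Wilson intervals. The coding share is 83.3% in the 8 genes and 58.3% over all, and the 3' UTR share 8.33% and 37.2%.

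The exons that held these peaks were long. The median exon around a SySy-called exonic midpoint had 1584 nt in the 8 genes and 1705 nt over all protein-coding genes, and 23 of the 24 such peaks in the 8 genes lay in an exon over 400 nt, 95.8% against 95.3% over all. These 24 peaks shared 9 exons, of which 8 were over 400 nt, and the exception was the first exon of Ythdf3, with 285 nt. Genes with a long coding exon carried peaks more often in general: a SySy-called peak was found in 39.3% of 2934 protein-coding genes with more than 1000 nt of coding sequence in one exon, in 21.3% of those with over 400 up to 1000 nt, in 16.7% with over 200 up to 400 nt, and in 10.6% of the rest. The longest coding stretch was 1521, 1584 and 1599 nt in Ythdf1, Ythdf2 and Ythdf3 and 1842 nt in Prrc2a, which put these 4 in the first class. Alkbh5 with 773 nt, Fto with 619 nt and Ythdc1 with 427 nt were in the second. Ythdc2 with 293 nt was in the third.

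Ythdc1 (mm10 chr5:86804221-86836659, plus strand, 17 exons in the representative transcript) was the exception to the coding pattern. Of its 5 SySy-called peaks 4 lay in intron 11, and none had its midpoint in an exon of the representative transcript. The intron runs over chr5:86828122-86830553 and has 2432 nt, the fourth longest of the gene's 16 introns. It makes up 8.35% of the gene's intronic sequence. Its 4 peaks covered chr5:86828192-86828351, chr5:86828904-86829153 and chr5:86829236-86829449 in Cfg1, and chr5:86829451-86829637 in Cfg2. Together they took 811 nt, or 33.3% of the intron. Pieces of one split call made up 3 of the 4. Of 542 introns of protein-coding genes with a SySy-called peak, 17 had 3 or more Cfg1 peaks and 28 had 4 or more SySy-called peaks, whatever the length of the intron.

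The annotation places several alternative transcripts over the same stretch. Reading on from exon 11 into the intron meets an in-frame TGA stop codon after 17 codons, at bases 50 to 52 of the intron. At the end of exon 11, 534 of the 736 residues (72.6%) have been encoded. All 4 intronic peaks lay downstream of this stop codon, the first of them starting 19 nt past it and the midpoints lying 98, 855, 1169 and 1371 nt past it. Nearly all of the 2432 nt of the intron lie past the stop codon, so almost any peak in the intron would. A transcript annotated as a target of nonsense-mediated decay extends exon 11 through the stop codon to an alternative 5' splice site at base 1358 of the intron, chr5:86829479. The 3 Cfg1 peaks were wholly inside this extension. The Cfg2 peak straddled its end, with 29 nt before the alternative splice site and 158 nt after it. The third Cfg1 peak had its midpoint 24 nt past the annotated start of a short noncoding transcript that uses the same splice site. A retained-intron transcript ends at base 212 of the intron, within the first peak, and another one retains the whole intron. As a result 4 of the 5 SySy-called intronic peaks of the 8 genes were exonic in another annotated transcript (37.6% to 96.4%), against 38.9% of 828 such peaks over all protein-coding genes (35.6% to 42.3%). These 4 peaks all lie in intron 11 and are not independent, which the interval does not take into account. The transcript that retains the whole intron makes any peak there exonic, wherever it lies, so nothing is concluded from the difference in share. Peak lists do not show which of these transcripts carried the mark.

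**Figure D3:**
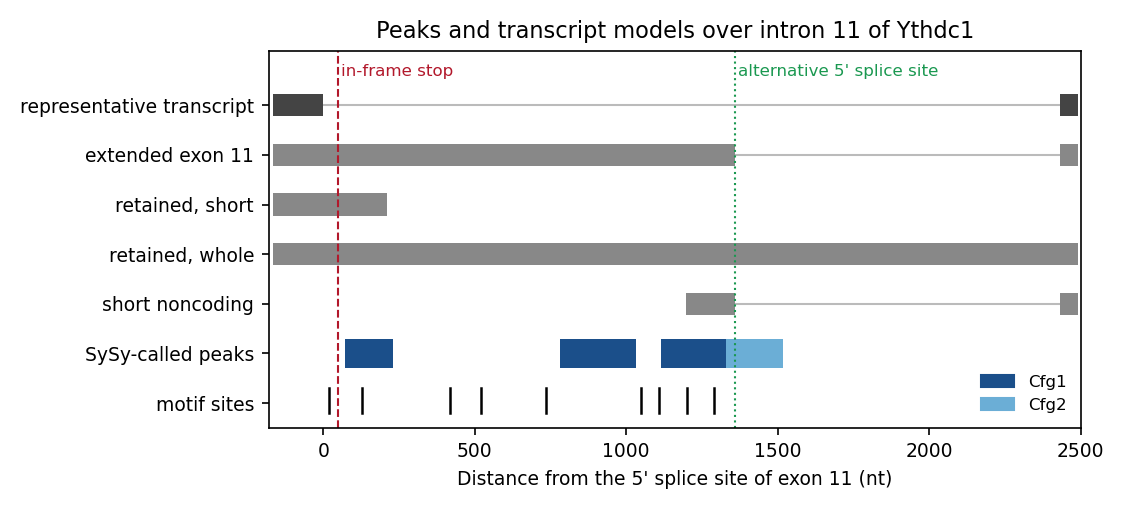
Transcript models (grey boxes are exons, thin lines introns), SySy-called peaks (dark blue Cfg1, light blue Cfg2) and occurrences of the consensus pentamer (black ticks) along intron 11 of Ythdc1, with the distance from the 5' splice site of exon 11 in nt on the x axis. All 4 peaks lie past the in-frame stop codon (red, base 50), as does nearly all of the intron, and the Cfg2 peak spans the alternative 5' splice site (green, base 1358).

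Intron 11 holds 9 copies of the consensus pentamer GGACT, all in front of the alternative splice site, the first centred at base 19 and the last at base 1288. Of these, 3 were inside SySy-called peaks, 1 in the first peak and 2 in the third. The second Cfg1 peak had none, though it held 7 pentamers of the wider DRACH family. That family is any of 18 pentamers with A, G or T first, A or G second, then AC, then A, C or T. The sequence around the pentamer nearest the midpoint is printed for the 3 Cfg1 peaks, RNA strand, mm10, with the pentamer in capitals. The pentamers lie at chr5:86828247-86828251, chr5:86829052-86829056 and chr5:86829321-86829325.
Ythdc1 intron 11, first Cfg1 peak: caagctgcatGGACTagtttgtggc
Ythdc1 intron 11, middle Cfg1 peak: attctgctaaAGACTattggatgtg
Ythdc1 intron 11, last Cfg1 peak: gttttgcaatGGACTgcaaactata
The pentamer centres lay 22, 26 and 19 nt from the midpoints. The splice donors and the in-frame stop codon of the same region are shown to let the competing exon ends be read, with the first intronic dinucleotide or the stop codon in capitals.
Donor of exon 11: tgtgggaagGTtagaaa
Alternative donor at base 1358: aagaaagcgGTatgttt
Stop codon at bases 50 to 52: cgggataacaTGAtggaggaatg
Both donors start with the usual GT.

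Outside intron 11, Ythdc1 had a Cfg2 peak at its 5' end, chr5:86804344-86804593. Its midpoint lay 96 nt in front of the start of the representative transcript and 247 nt inside the first exon of a coding transcript that starts further upstream, so it counted as neither exonic nor intronic. The interval itself ran 30 nt past the start of the representative transcript, over its first exon and 2 nt into intron 1. The peak was 74.8% GC, held 2 GGACT, one of them 4 nt from its midpoint, and lay on the same strand within the noncoding gene Gm43055. The 2 Cfg3 peaks of Ythdc1 were both coding. One was in exon 4, chr5:86816996-86817245, at residue 225, with its midpoint 14 nt past the annotated end of Gm43055. The other was in the last exon, chr5:86835689-86835828, 147 nt before the last coding base. Neither held GGACT.

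The 3 Ythdf genes, whose proteins share a YTH domain at the C terminus and a long low-complexity region before it, were marked inside a single large exon each. This exon holds 86.5% of the coding sequence of Ythdf1 (exon 5), 91.2% of that of Ythdf2 (exon 4) and 89.4% of that of Ythdf3 (exon 5). It held 3, 4 and 4 SySy-called peaks in the 3 genes, which covered 40.4%, 48.3% and 40.2% of its length. Ythdf1 (chr2, minus strand) had its 3 Cfg2 midpoints at residues 167, 273 and 519 of the 586 encoded by the representative transcript. Its cassette exon 3, of 81 nt, was 7897 nt from the nearest peak. Ythdf2 (chr4, minus strand) had Cfg1 midpoints at residues 165, 392 and 498 and a Cfg2 midpoint at residue 558 of 579. The peaks at 392, 498 and 558 were pieces of one call. The last of them, chr4:132204104-132204244, ran 28 nt over the 5' splice site into intron 4. Ythdf3 (chr3, plus strand) had a Cfg1 midpoint at residue 203 and Cfg2 midpoints at residues 411, 449 and 501 of 596. Cfg3 added midpoints at residues 296 and 549.

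The proteins are alike enough for the peaks to be compared by position. In global alignments 70.1% of residues were identical between Ythdf1 and Ythdf2, 71.9% between Ythdf1 and Ythdf3 and 71.8% between Ythdf2 and Ythdf3. Of the 11 SySy-called coding peaks, 10 had a midpoint of another Ythdf gene within 50 aligned residues. The exception was the Ythdf1 peak at residue 273, whose nearest such midpoint was 58 residues away, with a Cfg3 peak of Ythdf3 at 34. These 10 peaks are to be read against the coverage of the proteins: 70.7% of all 1761 residues lay within 50 aligned residues of such a midpoint. In the first stretch, residue 167 of Ythdf1, 165 of Ythdf2 and 203 of Ythdf3 corresponded to residues 142, 165 and 190 of Ythdf2. In the second, residue 392 of Ythdf2 and residue 411 of Ythdf3 were 2 aligned residues apart, and Ythdf1 had no peak there. In the third, near the C terminus, residues 519, 498 and 501 corresponded to residues 513, 498 and 484 of Ythdf2.

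**Figure D4:**
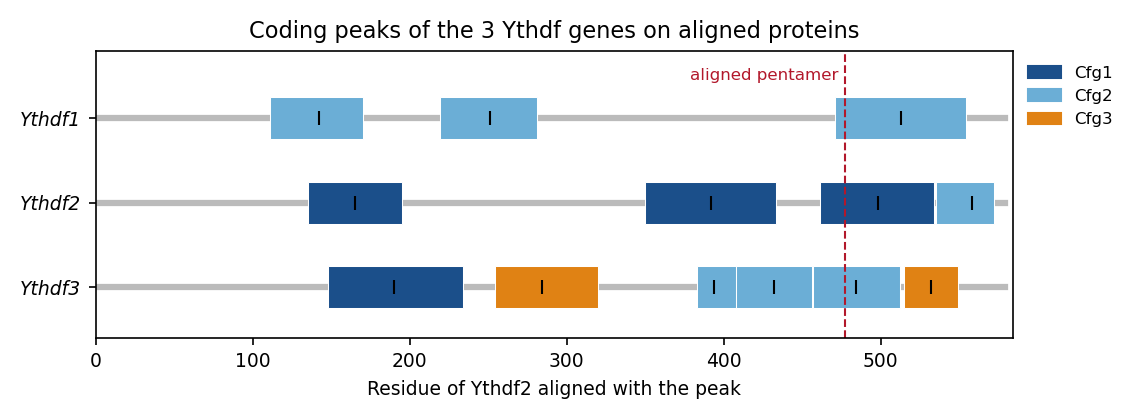
Coding peaks of Ythdf1, Ythdf2 and Ythdf3 (rows; dark blue Cfg1, light blue Cfg2, orange Cfg3) carried by protein alignment onto the residues of Ythdf2 (x axis); black ticks are midpoints. Peaks of all 3 genes cover the aligned pentamer position marked in red, at residue 477 of Ythdf2, while only Ythdf2 and Ythdf3 have a peak around residue 392.

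In the stretch near the C terminus the same aligned pentamer position was covered in all 3 genes, with a different first base in Ythdf3. The coding sequence of Ythdf1 holds 1 GGACT, that of Ythdf2 holds 2 and that of Ythdf3 holds 1, and 1 of each was inside a SySy-called peak. The GGACT of Ythdf1 (chr2:180910968-180910972, residue 483) and that of Ythdf2 (chr4:132204413-132204417, residue 477) were in the same codons of the alignment. Ythdf3 has AGACT there (chr3:16205139-16205143, residue 494), which is still of the DRACH family. With positions counted from the first base of the pentamer in Ythdf2, the change is G1A. The sequences are shown to let the 3 paralogues be compared, RNA strand, with the pentamer in capitals.
Ythdf1: agtcccctgtGGACTacggcaccag
Ythdf2: aatctgctgtGGACTacaacacatg
Ythdf3: agtctgttgtAGACTataatgctta
The pentamer lay 104, 60 and 19 nt from the midpoint of its peak in Ythdf1, Ythdf2 and Ythdf3. The GGACT of Ythdf3, at chr3:16204267-16204271, was 5 nt from the midpoint of its Cfg1 peak, and neither paralogue has GGACT in the aligned codons.
Ythdf3, Cfg1 peak at residue 203: aggcatgactGGACTgaaaattggt
The shorter core GGAC occurred 33 times in the 3 coding sequences, 18 of them inside SySy-called peaks. This count is to be read against coverage: the peaks took up 40.4%, 48.3% and 40.2% of the long exon in Ythdf1, Ythdf2 and Ythdf3. One GGAC was present in the same codons of all 3 genes among those in peaks. It began in codon 471 of Ythdf1, 465 of Ythdf2 and 482 of Ythdf3, and reads as follows with the core in capitals.
Ythdf1, chr2:180911008: caatgggagtGGACatttctgtgg
Ythdf2, chr4:132204453: caacggcagtGGACacttctgtgg
Ythdf3, chr3:16205103: gaatggcagtGGACatttttgtgg
The coordinates are those of the adenosine in the core. It was inside a Cfg1 peak in Ythdf2 and a Cfg2 peak in Ythdf3, and 17 nt outside the nearest peak in Ythdf1.

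The Ythdf genes also had peaks outside the long exon. In the 3' UTR, Ythdf2 had a Cfg2 peak 106 nt past the last coding base, chr4:132186772-132186871, with 1 GGACT. Ythdf3 had a Cfg1 peak 57 nt past it, chr3:16213917-16214148, with no GGACT. This last peak began 38 nt before the 3' splice site of the final exon and thus ran over the exon border. The first exon of Ythdf3 held a Cfg2 peak, chr3:16183281-16183451, with its midpoint 130 nt from an annotated transcript start and no DRACH pentamer. Ythdf3 also had 2 Cfg3 peaks in introns, 9221 nt into intron 3 and 1166 nt into intron 5, and these were exonic in no annotated transcript.

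Prrc2a (chr17, minus strand, 31 exons), which codes for a large coiled-coil protein reported to bind m6A, had all 4 of its peaks in exon 16. This exon has 1842 nt, 26.7% of the transcript. The peaks lay at residues 961 and 1002 in Cfg2 and at residues 1094 and 1382 in Cfg1 of 2158, and covered 37.9% of the exon. The first began 330 nt after the start of the exon and the last ended 37 nt before its end. Both GGACT of exon 16 were inside peaks, at chr17:35156642-35156646 in the Cfg2 peak at residue 1002 and at chr17:35155626-35155630 in the Cfg1 peak at residue 1382. They are shown as the full set of this pentamer in the exon.
Prrc2a, Cfg2 peak: ggcttcggcgGGACTattcctatga
Prrc2a, Cfg1 peak: aaagctgtggGGACTcctggggcca
The second was near the edge of its peak, 101 nt from the midpoint, and the first was 23 nt from the midpoint.

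Fto, a demethylase gene that spans 354915 nt (chr8:91313525-91668439, plus strand) of which 99.0% is intron, had a single enriched stretch. One SySy call was split into Cfg2 peaks at chr8:91409209-91409277 and chr8:91409279-91409418 and a Cfg1 peak at chr8:91409420-91409630. They lay in exon 3, of 619 nt, covered 65.6% of it, and had midpoints at residues 48, 83 and 142 of 502. The call began 14 nt inside intron 2, over the 3' splice site, and its end was 211 nt short of the end of the exon. Exon 3 holds no GGACT, and the peaks held 8 DRACH pentamers, 6 of them in the Cfg1 piece. No peak of any list fell in an intron of Fto. The pentamer nearest the midpoint of the Cfg1 piece, 5 nt from it, is at chr8:91409528-91409532.
Fto, Cfg1 peak: taaagctcaaTGACTacctccaggt

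Alkbh5 (chr11:60536381-60558512, plus strand), the other demethylase gene, had 4 Cfg2 peaks towards its 5' end. Of these, 3 were in exon 1, which has 1218 nt and holds the start codon at base 446. They lay in the 5' UTR with the midpoint 54 nt before the start codon (chr11:60538273-60538465), at residue 33 and at residue 159 of 395. The fourth, chr11:60539251-60539480, began after 55 nt of intron 1, an intron of 8492 nt, and was exonic in no annotated transcript. The 3 exonic peaks were 68.9%, 77.3% and 69.7% GC and the intronic one 46.5%, against a median of 51.2% over the SySy-called peaks of all protein-coding genes. Exon 1 holds 2 GGACT, 1 of them in the peak at residue 159, at chr11:60538920-60538924. The intronic peak held 5 DRACH pentamers, and the one nearest its midpoint, 6 nt away, is at chr11:60539369-60539373. Both are printed since they are the exonic and the intronic candidate of this gene.
Alkbh5, exon 1: acgagatcccGGACTgggtgcatca
Alkbh5, intron 1: tagcaggataAGACTaatgtggaat
The letters alone do not show a methylated adenosine.

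Peaks near the 5' end of the gene were found in 3 genes, with midpoints 130 nt (Ythdf3), 235 nt (Ythdc1) and 391 nt (Alkbh5) from the nearest annotated start upstream. In intron 11 of Ythdc1, the last Cfg1 peak and the Cfg2 peak also lay 24 and 226 nt past the annotated start of the short noncoding transcript. m6A antibodies also bind m6Am, and which of the marks these peaks hold was not tested.

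GGACT occurred in 10 of the 30 SySy-called peaks (33.3%, 19.2% to 51.2%), against 35.0% of 9856 over all protein-coding genes. By list it occurred in 5 of 11 Cfg1 peaks, 5 of 19 Cfg2 peaks and none of the 6 Cfg3 peaks of these genes, which allows up to 39.0% by the same interval. Over all protein-coding genes the shares were 38.1%, 31.9% and 17.1%. In the 10 peaks the GGACT nearest the midpoint was centred 4 to 104 nt from it, with a median of 23.0 nt. Pooled over the genes, GGACT occurred 2.22 times per kb in the 5410 nt of SySy-called peaks (12 copies, 95% Poisson interval 1.15 to 3.87) and 0.571 times per kb in the 19281 nt of the same exons and introns outside all peaks (11 copies, 0.285 to 1.02). The core GGAC occurred 7.58 times per kb in the peaks (5.44 to 10.3) and 2.33 times per kb in the rest (1.70 to 3.12). The same pentamer on the opposite strand, AGTCC, occurred 0.555 times per kb in the peaks (0.114 to 1.62) and 0.674 times per kb in the rest (0.359 to 1.15). For the DRACH family the densities were 23.1 per kb in the peaks (19.2 to 27.5) and 18.7 per kb in the rest (16.8 to 20.7). The pooled values hide differences between genes. Alkbh5 alone gave 9032 nt of the sequence outside peaks. In Ythdc1, GGACT stood at 4.71 per kb in the peaks and 3.44 in the rest. Without Ythdc1 and Alkbh5, a choice made after their values were seen, GGACT stood at 1.63 per kb in the peaks (0.600 to 3.56) and 0.235 in the rest (0.0285 to 0.849), with intervals that overlap. Fto had no GGACT in either, and its GGAC stood at 4.76 per kb in the peaks, against 9.39 in the rest. DRACH was less dense in the peaks than in the rest in Ythdc1 (18.9 and 23.5 per kb), in Alkbh5 (14.7 and 17.9 per kb) and in Fto, by less than the counting error. In the 25 SySy-called peaks outside introns GGACT stood at 2.06 per kb (0.942 to 3.91), against 0.319 in the rest of those exons (0.0658 to 0.933). This set includes the 5' peak of Ythdc1, which has its midpoint outside the representative transcript and gave 2 of the 9 copies. The density without that peak was not computed. In the 5 intronic peaks GGACT stood at 2.88 per kb (0.594 to 8.42), against 0.809 in the rest of those introns (0.349 to 1.59), with intervals that overlap. All 3 copies in intronic peaks lay in Ythdc1 intron 11. Within that intron GGACT stood at 3.70 per kb in the peaks (0.763 to 10.8) and 3.70 per kb in the rest (1.36 to 8.06). The intronic peak of Alkbh5 held none, and the other 8262 nt of its intron held 2. In the SySy-called peaks of all protein-coding genes GGACT occurred 2.44 times and GGAC 7.18 times per kb.

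**Figure D5:**
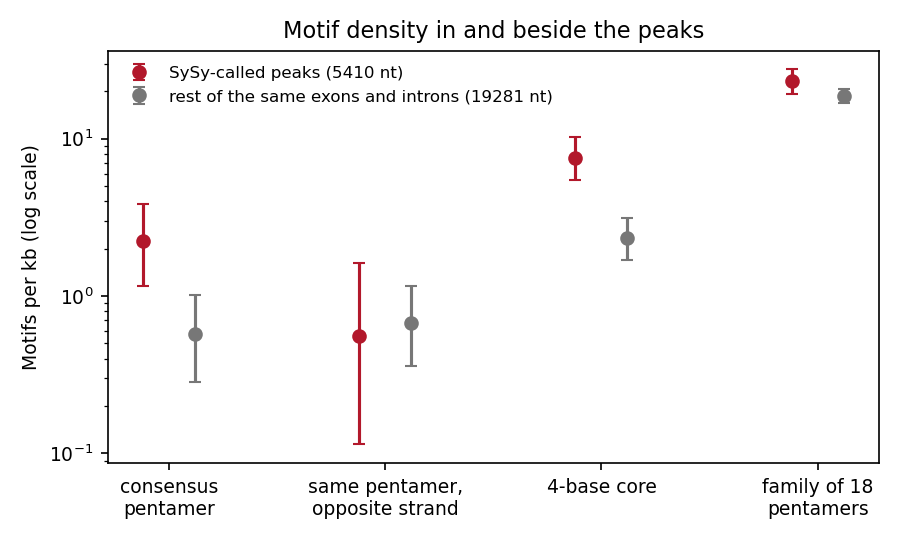
Motifs per kb (log scale) in the SySy-called peaks of the 8 genes (red) and in the rest of the same exons and introns (grey), with 95% Poisson intervals, for the consensus pentamer GGACT, the same pentamer on the opposite strand, its 4-base core GGAC and the DRACH family of 18 pentamers. The consensus stands at 2.22 per kb in the peaks and 0.571 in the rest, while the opposite strand stands at 0.555 and 0.674.

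Peaks close to the stop codon were in the minority. Of 28 exonic peaks of any list, 5 had their midpoint within 200 nt of the last coding base (17.9%, 7.88% to 35.6%), against 22.2% of 10972 over all protein-coding genes (21.4% to 23.0%). They were the 2 peaks of Ythdf2 and the 2 of Ythdf3 on either side of that base and the Cfg3 peak in the last exon of Ythdc1. The third Ythdf1 peak lay just outside, 203 nt before it. Prrc2a, Fto and Alkbh5 had no peak there.

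The other genes of the m6A pathway were counted for comparison. Of 12 writer genes, 8 carried a SySy-called peak, and the 6 with a Cfg1 peak were Wtap, Virma, Zc3h13, Cbll1, Rbm15 and Rbm15b, all of which code for accessory subunits of the writer complex. Mettl3, Mettl14 and Mettl5 had no peak in any list. Of 6 other reported reader genes without a YTH domain, 1 carried a SySy-called peak and none a Cfg1 peak, and Igf2bp2, Igf2bp3 and Fmr1 had no peak in any list. The 8 genes described here, with 7 carrying a SySy-called peak, stood beside 9 of these 18 and beside the 19.7% of all protein-coding genes.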

How the data were processed

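Peak intervals of the 3 deposited lists were used. Per the study's methods and the submitters' notes, the authors had called peaks with MACS2 2.1.1 on pooled duplicates against input, separately for each antibody, split them between summits, trimmed them to at most 250 nt around the summit and assigned a strand. HOMER is also named. The aligner is not given in the sources used here. The score column that the authors deposited was 0 throughout, so it was not analysed, and the positions deposited were taken as intervals. One strand field with a stray character was read as plus and belonged to no peak described here.

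Intervals were placed by midpoint on GENCODE vM21 (GRCm38.p6, the coordinates of mm10), an earlier release than the vM24 of the study, with 1 representative transcript per gene (longest coding sequence). All 39 annotated transcripts of the 8 genes, spliced from the assembly, matched the reference transcripts base for base. Positions and strands were tested on a simulated gene. A protein was translated for alignment only (BLOSUM62, gap opening 11, extension 1). All peaks of the 8 genes are described, and of the other pathway genes those with a Cfg1 peak or no peak are named. The members and gene lists were chosen with earlier results of these data known. Software was Python 3.11.15, scipy 1.17.1, pysam 0.24.0, biopython 1.88 and matplotlib 3.10.9.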

Additional observations from a re-analysis of the deposited data

How the results depend on the processing

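No paired analysis was possible because the lists hold no value per library. For the same reason no replicate could be left out, and a stricter threshold could not be set on scores that are all 0. The count of 36 peaks was the same with an overlap of 1 nt, with either strand and with spans extended by 1000 nt, was 27 after merging within 50 nt, and was 35 without the peak inside another gene (chosen after seeing the data). The intronic share of SySy-called peaks, 16.7% (7.34% to 33.6%), was 3.33% with the longest transcript and 3.33% when exons of any transcript counted, since the 4 peaks of Ythdc1 intron 11 are then exonic. Over all protein-coding genes 8.40% of 9856 SySy-called peaks had their midpoint in an intron of the representative transcript, a share inside that interval. The share with GGACT, 33.3%, was 66.7% for GGAC, 93.3% for DRACH and 10.0% on the opposite strand. Over the SySy-called peaks of all protein-coding genes the share was 35.0% for GGACT, 98.0% for DRACH and 13.4% on the opposite strand. No such share is given for GGAC, so its 66.7% cannot be set against all genes. GGACT per kb, 2.22, was 7.58 for GGAC and 0.555 on the opposite strand, and 1.63 without Ythdc1 and Alkbh5 (chosen after seeing the data). The share within 200 nt of the stop codon, 17.9%, was 7.14% within 100 nt. The share in exons over 400 nt, 95.8%, was 100% over 200 nt. For the limits of 100 nt and 200 nt no share over all protein-coding genes is given, so these values describe the 8 genes only. The other alternatives stayed within the interval of the value given, or within 1.5 times a count. Of the Ythdf peaks, 8 had a paralogue's midpoint within 25 aligned residues and 11 within 100, where 50.1% and 90.3% of all residues lay as near, and of the 18 other pathway genes, 6 had a Cfg1 peak and 12 a peak of any list.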
